A study of Mus musculus with 2 samples.

Results

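Mir21a and Mir22 are hairpin genes whose miRNAs have been studied in cardiac fibrosis and hypertrophy. They were picked by name in GENCODE M21, the gene annotation used for the deposited counts, and are 2 of the 2202 miRNA genes in each table. Each name matched a single gene identifier. The rule uses no measured value, but the genes were chosen with earlier results of these data known. The counts come from microRNA-seq of hearts of adult males of the strain 5xFAD/CAST, 8 to 10 months old, in 2 libraries of a single group, replicate 2 and replicate 1. 5xFAD is a transgenic line of amyloid deposition whose mutant human transgenes are driven by the neuronal Thy1 promoter, and CAST is a wild-derived inbred strain. Both libraries carry the same strain label, and the sources used here do not say whether these animals carried the transgenes. The labels name a different biosample and the same donor entry for each library and do not state that they came from separate animals, so every spread and p-value below may be technical.

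A miRNA guides Argonaute proteins to messenger RNAs that pair with its seed, bases 2 to 8 of the mature strand, and the targets are then repressed. miR-21 is abundant in cardiac fibroblasts, where it is known to repress Spry1, a brake on ERK signalling, and in many tissues it represses Pdcd4, an inhibitor of translation initiation. It rises in the heart after pressure overload and infarction, and its part in fibrosis has been debated. miR-22 is abundant in cardiac and skeletal muscle, is needed for the hypertrophic response of the mouse heart, and represses the deacetylases Sirt1 and Hdac4.

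The mature strands are shown first, because the seed sets which targets a miRNA can reach and because a read was given to a gene only if it aligned to a single place. The sequences are from RefSeq on GRCm38.p6, written 5′ to 3′ with the seed in capitals. The 4 strands of Mir21a and Mir22 follow.
miR-21a-5p: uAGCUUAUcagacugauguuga
miR-21a-3p: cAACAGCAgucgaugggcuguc
miR-22-5p: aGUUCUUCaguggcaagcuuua
miR-22-3p: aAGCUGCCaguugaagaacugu
All 4 are 22 bases long and their seeds all differ, so no seed is shared between Mir21a and Mir22. A target site for the seed of miR-21a-5p reads AUAAGCU, and one for the seed of miR-22-3p reads GGCAGCU. In both hairpins the strand for which these functions are known is miR-21a-5p or miR-22-3p, and the deposited counts do not tell the strands of a hairpin apart.

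The mouse genes closest to Mir21a by name are Mir21b and Mir21c, shown here because a near copy could take or share its reads.
miR-21b: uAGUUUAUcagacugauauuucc
miR-21c: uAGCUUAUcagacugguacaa
Counted from 1 at the 5′ end of miR-21a-5p, miR-21b carries C4U within the seed and G18A, G21U and A22C outside it. miR-21c keeps the seed and carries A16G, G18A, U19C, U20A and G21A. It was the only other mature miRNA in the RefSeq table with the seed of miR-21a-5p, and none shared a seed with miR-21a-3p, miR-22-5p or miR-22-3p. Mir590, also listed beforehand for its seed or name, matched no gene in the counts, so nothing is said of it here. Mir21b and Mir21c had 0 counts in replicate 2, which allows up to 0.593 CPM, or counts for every 1e6 sense counts, and 0 counts in replicate 1, which allows up to 0.771 CPM.

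On mm10, Mir21a (ENSMUSG00000065455.1) lies on the minus strand at chr11:86584067-86584158, a hairpin of 92 bases. It falls inside exon 12 of Vmp1, which encodes an autophagy protein of the endoplasmic reticulum, in the 3′ UTR and on the same strand. Mir22 (ENSMUSG00000065529.1) lies on the plus strand at chr11:75463716-75463810, a hairpin of 95 bases. It falls inside exon 2 of its long non-coding host Mir22hg and of a non-coding transcript of Tlcd2, both on the same strand. No other annotated miRNA gene lay within 10 kb of either hairpin, so each stands alone rather than in a cluster. The Mir22 hairpin is shown with both mature strands in capitals, since reads from either were added to the same count.
Mir22 hairpin: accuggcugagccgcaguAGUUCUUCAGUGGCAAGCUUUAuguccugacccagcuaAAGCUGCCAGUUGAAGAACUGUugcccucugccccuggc

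Both sequences were distinctive among the annotated hairpins. The longest stretch of Mir21a found in another of the 2202 hairpins was 15 bases, in Mir21c, and that of Mir22 was 12 bases, in Mir6982. Neither shared 20 bases with another hairpin, whereas 77 of the 325 detected genes did (23.7%). Detected here means 10 or more sense counts in each library. Reads that aligned to several places were given to no gene in these tables and outnumbered sense counts by 1.31 to 1 in replicate 2 and 1.18 to 1 in replicate 1. How many reads either gene lost that way was not tested.

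The libraries held 5058613 sense counts in replicate 2 and 3889280 in replicate 1. Mir499 and Mir208a, heart muscle genes hosted by myosin heavy chain genes, were well detected in both. The heart muscle list of 7 genes summed to 7481 CPM in replicate 2 against 6776 in replicate 1, nearly all of it from these genes, which moved in opposite directions. Mir499 stood at 5888 CPM in replicate 2 against 2732 in replicate 1, and Mir208a at 1485 against 3885 CPM. The miR-1 and miR-133 genes, muscle miRNAs known to be abundant in heart, were low here: Mir1a-2 averaged 40.1 CPM, Mir133a-1 3.58 CPM and Mir133a-2 2.67 CPM, and Mir1a-1, with 5 counts in replicate 2 and 9 in replicate 1, fell below the 10 counts set for detection. These 4 genes share at least 20 bases with another hairpin, so their levels are uncertain. The hepatocyte gene Mir122 was low, at 27.1 CPM in replicate 2 and 28.8 in replicate 1.

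Among sense counts, Mir22 was one of the most abundant miRNA genes in both libraries. Mir21a was well detected but more than an order of magnitude lower. Sense counts leave out reads aligned to several places, which outnumbered them by 1.31 to 1 in replicate 2 and 1.18 to 1 in replicate 1. The ranks and shares below therefore hold among sense counts only. Mir22 had 415734 sense counts in replicate 2 and 159595 in replicate 1, or 82183 and 41035 CPM. It ranked 3 of all genes in replicate 2 and 12 in replicate 1. Its share of sense counts was 8.22% in replicate 2, with a 95% Clopper-Pearson interval of 8.19 to 8.24, and 4.10% in replicate 1, with an interval of 4.08 to 4.12. Mir22 averaged 61609 ± 29097 CPM (SD, n = 2), and its SD was 47.2% of the mean.

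Mir21a had 28492 sense counts in replicate 2 and 5022 in replicate 1, or 5632 and 1291 CPM. It ranked 27 in replicate 2 and 56 in replicate 1. Its share of sense counts was 0.563% in replicate 2, with an interval of 0.557 to 0.570, and 0.129% in replicate 1, with an interval of 0.126 to 0.133. Mir21a averaged 3462 ± 3070 CPM (SD, n = 2), and its SD was 88.7% of the mean, so these libraries place its level only within a wide range. The intervals cover counting error only and are far narrower than the gap between the libraries.

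The column of counts that ignores strand gave the same picture for both genes. Mir21a had 28493 and 5022 counts there in replicate 2 and replicate 1, with 1 and 0 reads on the opposite strand. Mir22 had the same counts as in the sense column, with 0 reads on the opposite strand in both libraries.

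**Figure D1:**
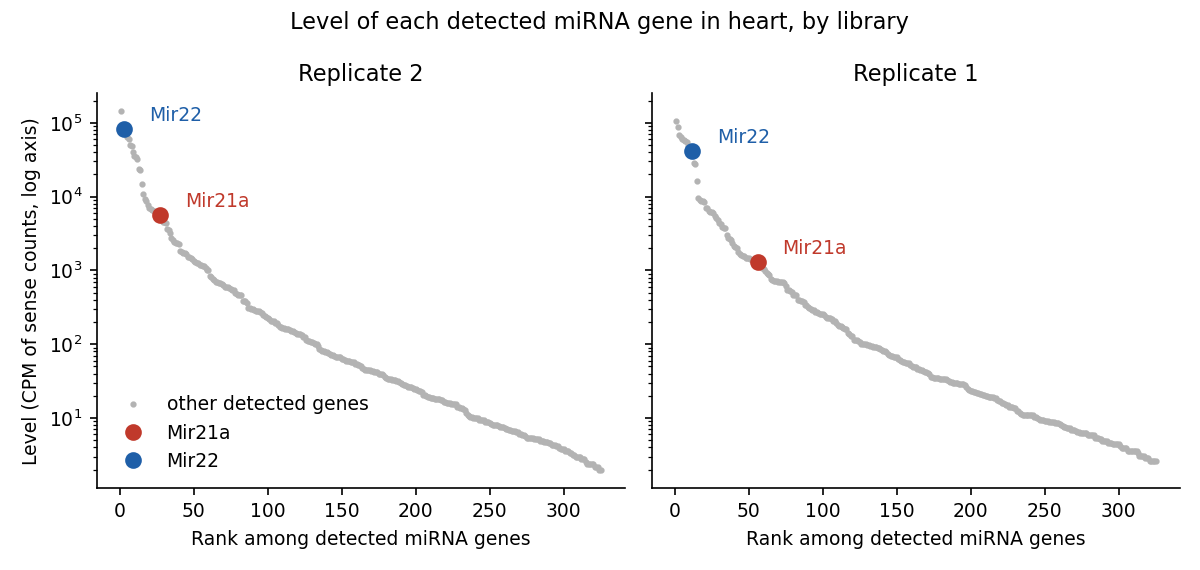
Level of each detected miRNA gene (CPM of sense counts, log axis) against its rank among the 325 detected genes, with replicate 2 on the left and replicate 1 on the right. Mir22 lies near the top in both panels, at 82183 CPM in replicate 2 against 41035 in replicate 1, and Mir21a lies higher on the curve in replicate 2, at 5632 CPM against 1291.

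The place of each hairpin among the genes nearest in mean level was not resolved by the libraries. By mean level Mir22 was rank 5, between Mirlet7g at 71319 ± 2977 CPM and Mirlet7b at 61720 ± 2076 CPM above it and Mirlet7i at 61595 ± 2389 CPM and Mir23b at 54033 ± 7153 CPM below it (SD, n = 2). The replicate range of Mir22 overlapped those of all 4 neighbours, and of 9 of the 324 other detected genes in all. By mean level Mir21a was rank 35, below Mir155 at 4042 ± 1175 CPM and Mir320 at 3960 ± 425 CPM, and above Mir208a at 2685 ± 1697 CPM and Mir221 at 2651 ± 473 CPM. Its range overlapped those of all 4, and of 34 of the 324 others. The place of Mir22 or of Mir21a among these neighbours therefore does not hold beyond the spread between the libraries. The neighbours themselves were partly ordered: Mirlet7g lay above Mirlet7b, Mirlet7i and Mir23b, and Mir155 and Mir320 lay above Mir221, with no overlap between libraries.

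Both genes were higher in replicate 2 than in replicate 1, Mir21a more so. After TMM scaling, which sets the libraries to a common scale by a trimmed mean of gene ratios, Mir21a was 4.74-fold higher in replicate 2 (95% exact interval 4.60 to 4.89). Had replicate 2 held the scaled level of replicate 1, 6006 counts of Mir21a would have been expected there, against the 28492 found. Mir22 was 2.18-fold higher in replicate 2 (2.17 to 2.19), with 190874 counts expected on the same basis and 415734 found. On the log2 scale, with 1 CPM added to both levels, the ratios were 2.25 for Mir21a and 1.12 for Mir22.

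Both differences passed the two-sided exact binomial test with Benjamini-Hochberg adjustment over the 412 tested genes. The log10 of the adjusted p was -3086 for Mir21a and -16697 for Mir22. This test asks only whether the reads of 2 libraries differ beyond counting error, and at this depth it is passed by many genes: 187 of 412 were called (45.4%), 22.6% of the tested genes as higher and 22.8% as lower in replicate 2. Calls of at least 2-fold were fewer, with 7.52% of the tested genes higher and 4.37% lower in replicate 2, and both hairpins are among the higher ones. Among the 58 genes with a mean of at least 1000 CPM, 93.1% were called in either direction and 46.6% as higher in replicate 2. A call for 2 genes this abundant therefore says little on its own.

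The size of the difference set Mir21a apart from most other genes more than the call did, and Mir22 less so. Of the 58 genes with a mean of at least 1000 CPM, 6 were called at least 2-fold higher in replicate 2 (10.3%), and Mir21a and Mir22 were both among them. In those 58 genes the median absolute log2 ratio was 0.29, and the middle 50% of log2 ratios ran from -0.26 to 0.31. Mir21a had the highest log2 ratio of the 58, and Mir185, which stood at 229 CPM in replicate 2 against 2330 CPM in replicate 1, was the only other gene of that set as far from 0. Mir22 ranked 5 of the 58, after Mir21a, Mir674, Mir140 and Mir499. In either direction, 9 of the 58, Mir22 included, lay at least as far from 0 as Mir22. Over all 325 detected genes Mir21a ranked 6 and Mir22 ranked 22 from the top. In either direction 31 of the 325, Mir22 included, lay at least as far from 0 as Mir22. These are places in 1 pair of libraries and carry no test.

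**Figure D2:**
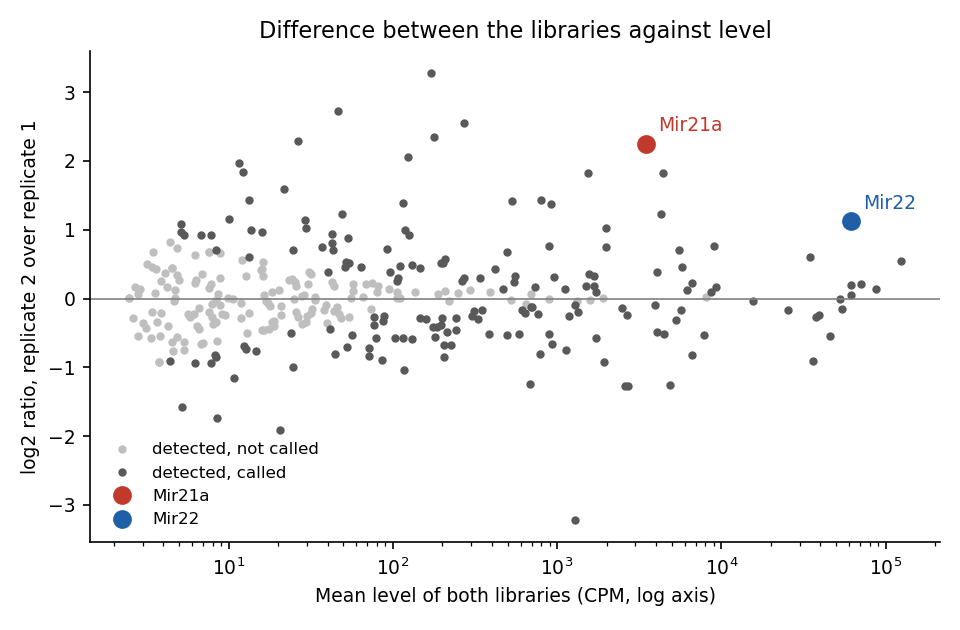
The log2 ratio of replicate 2 over replicate 1 (TMM scaled, 1 CPM added) against the mean level of both libraries (CPM, log axis) for the 325 detected genes, with genes called by the exact binomial test in dark grey. Mir21a, at 2.25, stands above all other genes of at least 1000 CPM, and Mir22, at 1.12, is the highest of the 10 most abundant genes.

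The direction held under each other scaling tried. With sense totals in place of TMM, Mir21a was 4.36-fold and Mir22 2.00-fold higher in replicate 2. With DESeq2 size factors they were 4.78-fold and 2.19-fold higher, with upper quartile scaling 4.79-fold and 2.20-fold, and when strand was ignored 4.91-fold and 2.25-fold.

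**Figure D3:**
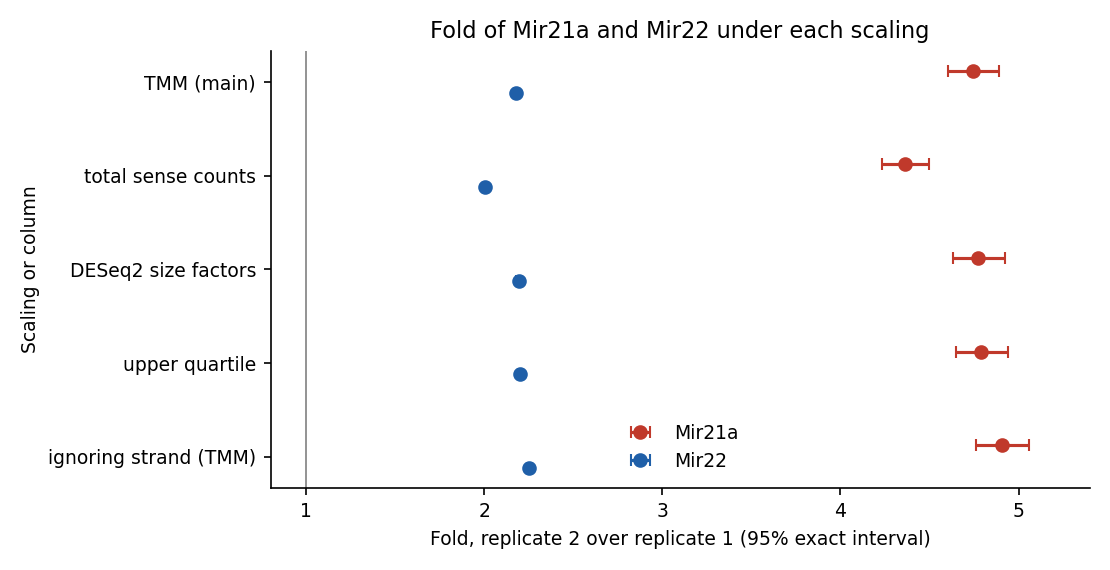
Fold of replicate 2 over replicate 1 (x axis, with 95% exact intervals for counting error) for Mir21a and Mir22 under 4 scalings of the sense counts and with strand ignored. Mir21a stays between 4.36 and 4.91 and Mir22 between 2.00 and 2.25, and the vertical line marks no difference.

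The balance between the hairpins also changed, a measure that needs no scaling between libraries. Mir22 outnumbered Mir21a 14.6 to 1 in replicate 2 (95% exact interval 14.4 to 14.8) and 31.8 to 1 in replicate 1 (30.9 to 32.7), a mean of 23.2 ± 12.2 (SD, n = 2). Per base of hairpin the count ratios were 14.1 to 1 in replicate 2 and 30.8 to 1 in replicate 1. The ratio in replicate 1 was 2.18 times that in replicate 2, and the log10 p of a two-sided Fisher's exact test on the 4 counts was -637. Mir22 thus exceeded Mir21a in both libraries.

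Set against genes of heart cell types within the same library, both hairpins were higher in replicate 2. The summed lists changed by 0.882-fold (leukocyte) to 1.51-fold (smooth muscle) after TMM scaling, less than either hairpin. The direction therefore followed from the folds above and adds no separate evidence. The heart muscle list is in effect Mir499 plus Mir208a, and 6 of the 8 fibroblast genes share 20 bases with another hairpin. Mir21a had 75.3 counts for every 100 of the heart muscle list in replicate 2 and 19.1 in replicate 1. Against 100 counts of the fibroblast list, made of the miR-199, miR-214 and miR-29 genes, it had 32.4 in replicate 2 and 6.59 in replicate 1. Against 100 counts of the leukocyte list it had 82.9 in replicate 2 and 15.4 in replicate 1. The ratio of replicate 2 to replicate 1 ranged from 3.15 against the smooth muscle list to 5.38 against the leukocyte list. In these tissue libraries, fewer cells of a type and less RNA per cell cannot be told apart.

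Mir22 had 1099 counts for every 100 of the heart muscle list in replicate 2 and 606 in replicate 1. Against 100 counts of the endothelial list, nearly all of it Mir126a, it had 93.6 in replicate 2 and 47.1 in replicate 1. Its ratio of replicate 2 to replicate 1 ranged from 1.45 against smooth muscle to 2.47 against leukocyte genes. Mir21a moved further than Mir22 against each of the 5 lists.

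**Figure D4:**
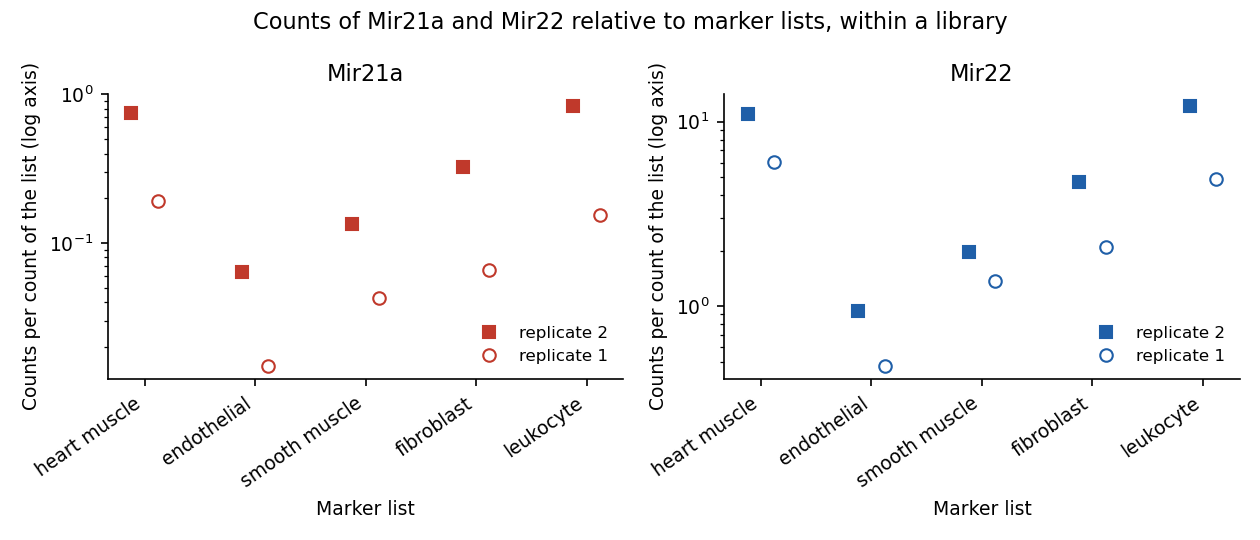
Counts of Mir21a (left panel) and Mir22 (right panel) divided by the summed counts of each marker list in the same library (log axes with different ranges), with replicate 2 as squares and replicate 1 as open circles. In each of the 10 pairs the square lies above the circle, which follows from the larger folds of the hairpins. Examples are 0.753 against 0.191 for Mir21a over the heart muscle list and 1.97 against 1.36 for Mir22 over the smooth muscle list.

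Marker lists of other cell types moved in different directions between the libraries, beside 22.6% of all tested genes called higher and 22.8% called lower in replicate 2. The summed level of the fibroblast list was 17372 CPM in replicate 2 against 19593 in replicate 1, most of it Mir29a at 14729 against 16356 CPM. Of its 7 tested genes Mir29c was called higher, at 2.59-fold, and Mir29a and Mir214 lower, and the median log2 ratio was 0.11. The leukocyte list summed to 6797 CPM in replicate 2 against 8382 in replicate 1, with Mir155 its most abundant gene. Of its 5 tested genes Mir146 was called higher, at 1.26-fold, and Mir155 lower, and the median log2 ratio was 0.066. The genes at these medians, Mir29b-1 and Mir223, stood at 57.1 against 57.6 CPM and at 184 against 191 CPM before TMM scaling, so the sign of both medians depends on the scaling.

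The smooth muscle list stood at 41748 CPM in replicate 2 against 30137 in replicate 1, with both tested genes of its 3 called higher. Most of that sum was Mir143, at 40225 against 28674 CPM. Mir145a stood at 1522 against 1463 CPM and was 1.13-fold higher after TMM scaling. The epithelial list summed to 347 CPM in replicate 2 against 184 in replicate 1, with 5 of 7 tested genes called higher, none lower, and Mir205 at 0 counts in replicate 1. The stem cell list summed to 1033 CPM in replicate 2 against 210 in replicate 1. Of its 11 genes 4 were tested, all from the Mir302 cluster and all called higher, and 4 others were at 0 counts in both libraries. As genes of a single cluster, the tested ones are not separate observations. Mir302a and Mir302b share at least 20 bases with another hairpin, as does a gene at 0 counts, so these levels are uncertain. The endothelial list was nearly level, at 87788 CPM in replicate 2 against 87116 in replicate 1, and after TMM scaling Mir126a was called higher at 1.10-fold. The erythroid list was at 1268 against 1688 CPM, most of it Mir486 at 1026 against 1334 CPM. Mir486 shares at least 20 bases with another hairpin, so this sum is uncertain. Of its 4 tested genes 1 was called higher, Mir144 at 52.4 against 32.1 CPM. The 2 called lower were Mir486 and Mir451a, the latter at 165 against 288 CPM. The neuronal list was at 177 against 247 CPM, with none of 4 tested genes called higher and 2 lower. Most of that sum was Mir128-1, at 142 against 206 CPM, and 4 of the 10 neuronal genes were at 0 counts in both libraries. Of the 10, 9 share at least 20 bases with another hairpin, Mir128-1 and those 4 among them. Their levels are uncertain for that reason, and the 0 counts do not show absence. Replicate 2 was also the deeper library, with 46.8% of its reads aligned to several places against 42.3% in replicate 1. The part of these differences in the higher Mir21a and Mir22 of replicate 2 was not tested.

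The genes most like each hairpin in their log2 ratio were named from the 134 detected genes of at least 100 CPM, over these 2 libraries. Nearest to Mir21a were Mir302b at 2.35, Mir302d at 2.06 and Mir302a at 2.55, genes of a cluster expressed in pluripotent cells. All 3 were far less abundant, with 123 to 273 CPM on average, and Mir302a and Mir302b share 20 bases or more with another hairpin. Nearest to Mir22 were Mir195a at 1.02, a miR-15 family gene, Mir499 at 1.23, in an intron of Myh7b, and Mir203 at 0.99, an epithelial gene. With 2 libraries a likeness is a similar ratio and nothing more.

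Other genes studied in heart stress went both ways between the libraries. Of the 20 genes of the cardiac hypertrophy list 19 were tested, 7 were called higher and 6 lower in replicate 2, and 6 did not pass the test, beside 22.6% called higher and 22.8% lower over all 412 tested genes. The median log2 ratio was 0.098, beside -0.0077 over all tested genes. The 3 most abundant were Mir378a, hosted by the mitochondrial regulator gene Ppargc1b, at 124376 ± 25707 CPM, Mir23a at 45902 ± 14757 CPM, and Mir34a, a p53 target, at 8678 ± 98.5 CPM (SD, n = 2). The called genes with the widest log2 ratios were Mir208a, in an intron of Myh6, at -1.27, Mir499 at 1.23 and Mir195a at 1.02. Mir208a and Mir499 are both muscle genes and stood on opposite sides.

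Of the 25 genes of the cardiac fibrosis list all were tested, 12 were called higher and 6 lower in replicate 2, and 7 did not pass, against the same 22.6% and 22.8% over all tested genes. The median log2 ratio was 0.16, beside -0.0077 over all tested genes. Abundant genes are called more often, as the 93.1% called among genes of at least 1000 CPM shows, and nothing particular to either list is read from these counts. The 3 most abundant were Mir29a, whose miRNA represses collagen genes, at 15542 ± 1150 CPM, Mir30a at 9232 ± 187 CPM and Mir30d at 9016 ± 2815 CPM (SD, n = 2). The called genes with the widest log2 ratios were Mir26a-2 at 3.28, Mir29c at 1.37 and Mir26a-1 at 1.16, the last from 30 counts in replicate 2 and 9 in replicate 1. These 3 share at least 20 bases with another hairpin, as do 15 of the 25 fibrosis genes and 11 of the 20 hypertrophy genes, Mir378a and Mir23a included, and their levels are uncertain for that reason. Mir21a and Mir22 share no stretch of 20 bases with another of the 2202 annotated hairpins. How many of their reads aligned to several places in the genome was not tested.

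The lists share 5 genes and hold 40 together, of which 39 were tested. Of these 39, only Mir26a-2 had a higher log2 ratio than Mir21a, and 4 genes, Mir26a-1, Mir26a-2, Mir29c and Mir499, had a higher one than Mir22. In either direction 5 lay farther from 0 than Mir22, with Mir208a, at -1.27, on the other side. With total sense counts the median of all tested genes shifted by -0.11 on the log2 scale. The hypertrophy list then had 5 genes called higher and 6 lower with a median of -0.013, so its direction is not settled, and the fibrosis list had 10 and 6 with a median of 0.041.

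**Figure D5:**
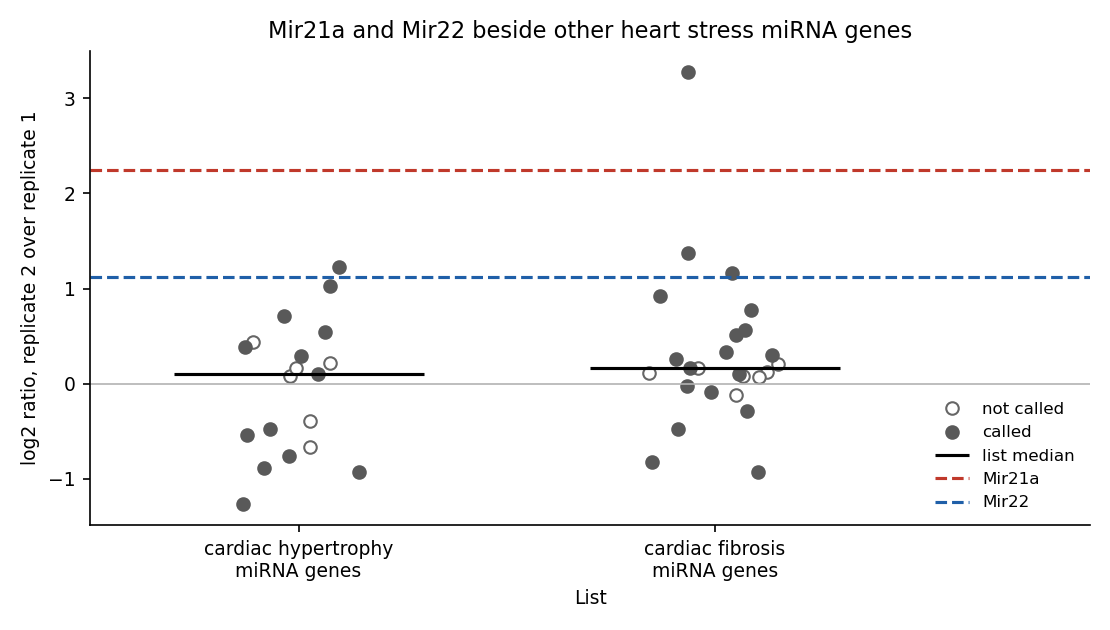
The log2 ratio of replicate 2 over replicate 1 for each tested gene of the cardiac hypertrophy list (19 genes) and the cardiac fibrosis list (25 genes), with filled points for called genes, a black line at each list's median, and dashed lines at the values of Mir21a and Mir22. The points lie on both sides of 0, with 1 point above the Mir21a line at 2.25 and 4 above the Mir22 line at 1.12.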

How the data were processed

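Heart small RNA was profiled in 2 libraries of a single group. The authors deposited raw read counts per miRNA gene in 3 columns, 1 without regard to strand and 1 for each strand, a reading of the layout taken from the values. Genome build mm10 and annotation M21 are given per the file headers of the deposited description files, and the sources used here name no aligner. The 4 summary lines that name no gene stayed out of library sizes and tests. They held 64.4% of reads in replicate 2 and 64.1% in replicate 1. Levels are CPM of the sense column. Genes with at least 10 summed sense counts (412) were compared between libraries by the exact binomial test, two-sided, with the ratio of TMM effective sizes as the null (edgeR 4.0.16, factors from the tested genes), adjusted by Benjamini-Hochberg at 0.05. With a single group, edgeR's quasi-likelihood test could not be fitted. Other scalings (DESeq2 1.42.0 size factors, upper quartile, total counts), filters, columns, denominators and Fisher's exact test were tried, and the code was tested on simulated data. The count of 0 floor is 3 counts per library. Reads carry no recorded molecular identifiers, so the intervals and the floor speak to counting error alone.

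Named genes were, by rule, Mir21a and Mir22, genes sharing their seed or name, the 2 detected genes above and below each in mean level, the 3 nearest in log2 ratio, and the 3 most abundant and 3 most changed of each stress list, and the top gene of marker lists. Mir140, Mir674, Mir185, Mir205, Mir146, Mir29b-1, Mir223, Mir214, Mir144, Mir451a, Mir145a and the miR-1 and miR-133 genes were named after their values were seen. The members and lists were chosen with earlier results of these data known, and many list genes also serve as markers: 12 of 20 in the hypertrophy list and 9 of 25 in the fibrosis list.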

Additional observations from a re-analysis of the deposited data

How the results depend on the processing

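Over 9 other settings each, the log2 ratio of Mir21a ran from 2.12 to 2.29 and that of Mir22 from 1.00 to 1.17, with the same call throughout. The settings were total counts, DESeq2 and upper quartile scaling, no low-count filter, a sum of at least 50 counts, the column that ignores strand, Fisher's exact test, and 0.5 or 5 CPM added. The number of called genes ran from 173 with a sum of at least 50 counts to 199 with total counts, against 187. Of the calls, 39.7% were higher in replicate 2 with total counts, against 49.7%. Levels depend on the denominator. Without the 10 most abundant genes, Mir21a averaged 10565 CPM and Mir22 185113 CPM, which for Mir22, itself one of the 10, is a ratio to a total that leaves it out. With mapped reads as the denominator Mir21a averaged 1416 CPM and Mir22 25328 CPM, and with all reads 1234 and 21998 CPM. Leaving out a replicate put the level of Mir21a at 1291 to 5632 CPM, that of Mir22 at 41035 to 82183 CPM, and the count ratio of Mir22 to Mir21a at 14.6 to 31.8. No paired analysis was possible because the libraries form a single group. With 2 libraries, differences between animals and between preparations cannot be told apart.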

Other observations

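The unscaled gain of Mir22 was large beside the net gain in sense counts of replicate 2. The sense total was 1169333 counts larger in replicate 2. Mir22 held 256139 more counts there, equal to 21.9% of that net gain and rank 2 among all genes. Mir21a held 23470 more, equal to 2.01% of the net gain and rank 11. Some genes held fewer counts in replicate 2, such as Mir23a with 179413 against 219108, so these percentages are not parts of the added depth.

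The hairpins differ in base composition. The GC content was 45.7% for Mir21a and 55.8% for Mir22, on either side of the median of 51.4% over the 325 detected genes. Across those genes, which share the same libraries, hairpin GC content and the log2 ratio of replicate 2 over replicate 1 had a Spearman rho of -0.21, given as a description only.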
